A study of Homo sapiens with 8 samples.

Results

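The transcriptional response to knockdown of peroxiredoxin II (PRDX2) was compared between HT29 and SW480 cells, both human colorectal cancer lines. Each line was transfected with a control siRNA (siCon) or an siRNA against PRDX2 (siPrdx2) for 36 h and sequenced as polyadenylated RNA in duplicate, so the comparison used all 8 of the 8 libraries in the series, 2 in each of the 4 groups. The quantity of interest was the difference of differences, that is the log2 fold change (siPrdx2 against siCon) in HT29 minus the log2 fold change in SW480, and it was tested for the 14772 of 25192 gene symbols with at least 10 expected counts in at least 2 libraries. Both lines carry truncated APC, HT29 was grown in McCoy's 5A and SW480 in RPMI1840, and medium and line cannot be told apart. The sources used here do not give the siRNA sequence used for sequencing or whether the duplicates were separate transfections, so the p-values measure the spread between libraries, which may be technical. All levels are bulk levels, in which a change in every cell and a change in the share of cells that make a transcript cannot be told apart.

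Peroxiredoxin II is an abundant cytosolic enzyme that reduces hydrogen peroxide with a reactive cysteine and thioredoxin. Colorectal cancer cells with truncated APC keep β-catenin active, and tankyrases add to this by marking axin, the scaffold of the β-catenin destruction complex, for degradation. A difference of differences above 0 means that a transcript moved further up, or less far down, in HT29 than in SW480.

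Total expected counts ran from 8857442 to 10164137 per library, at which 3 counts correspond to 0.295 to 0.339 CPM (counts scaled to a common library total). All 10 colorectal epithelial markers averaged at least 1 CPM in HT29 and 6 of 10 did in SW480, where CDH1 (E-cadherin) was at 24.9 to 29.2 CPM against 584 to 605 CPM in HT29. The leukocyte marker PTPRC was listed at 0 in every library. Of 7 leukocyte markers 3 reached 1 CPM in HT29, led by LYZ (lysozyme, which Paneth cells of the gut also make) at 3011 to 3295 CPM, and 3 did in SW480. Fibroblast markers that reached 1 CPM numbered 2 of 7 in HT29 and 3 of 7 in SW480, and endothelial markers 0 of 4 and 1 of 4.

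The 2 SW480 siCon libraries stood apart from each other. Their biological coefficient of variation (the spread between replicates beyond counting error) was 0.135, against 0.0199 for HT29 siCon, 0.0287 for HT29 siPrdx2 and 0.0440 for SW480 siPrdx2. The difference test fits 1 spread per gene for all groups, so it takes in the wider spread of these controls only in part. Its intervals and p-values can therefore be too narrow. The difference between these SW480 controls followed transcript GC content over 14036 genes (Spearman's rho of -0.69, a description across genes, which are not independent replicates). Over 10 equal bins of GC content, from the lowest to the highest, the median SW480 change measured against siCon replicate 1 alone went from -0.38 to 0.51 on the log2(CPM + 0.5) scale, and against siCon replicate 2 alone from -0.08 to 0.10. In HT29 the same medians stayed between -0.07 and 0.02. Differences are therefore also given, for lists and where they matter, with an offset that removes each library's trend on GC content, and the part that GC content has in any single gene's difference was not tested.

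**Figure D1:**
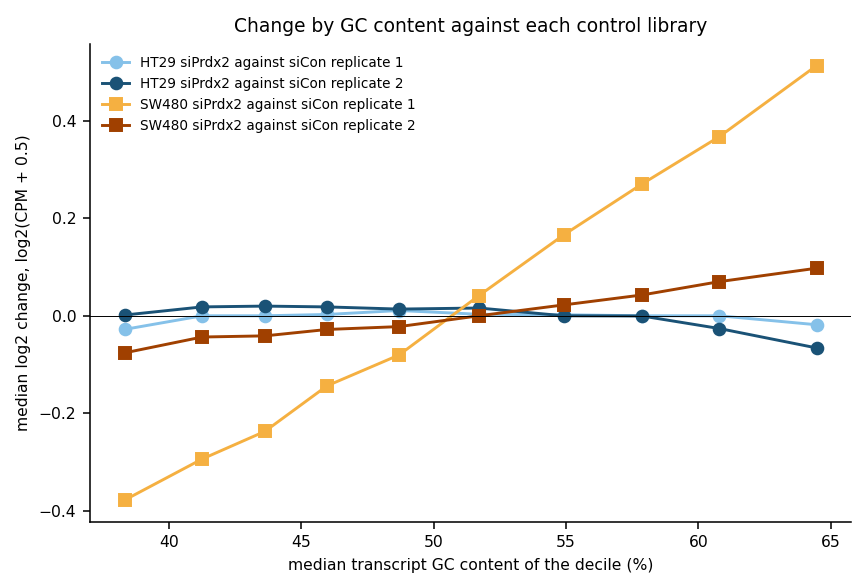
Median log2 change, siPrdx2 against a single siCon library, in 10 equal bins of 14036 genes ordered by transcript GC content (x axis, median GC % of each bin; y axis, log2(CPM + 0.5)). The line for SW480 siCon replicate 1 climbs from -0.38 to 0.51, while the other 3 lines stay between -0.08 and 0.10.

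The siRNA lowered its target in both lines, and further in SW480. PRDX2 (chromosome 19, 12907634 to 12912614, minus strand, hg19) was at 153 and 159 CPM in HT29 siCon and at 85.3 and 86.0 CPM in HT29 siPrdx2. In SW480 it was at 202 and 238 CPM in siCon and at 67.2 and 68.3 CPM in siPrdx2. The groups did not overlap in either line, and the SW480 cells started higher and ended lower. The log2 fold changes were -0.87 ± 0.05 (SE, n = 2 libraries per group) and -1.70 ± 0.12, and their difference was 0.84 (95% interval 0.57 to 1.11, adjusted p = 0.0128, edgeR quasi-likelihood test). The target thus fell further in SW480, and the part this has in the differences that follow was not tested. None of PRDX1, PRDX3, PRDX4, PRDX5 and PRDX6 passed the difference test, with differences between -0.16 for PRDX5 and 0.35 for PRDX3. PRDX1 passed with the GC offset (-0.29, adjusted p = 0.0137, against -0.15 without it).

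Across the transcriptome, 166 of 14772 genes (1.12%) differed in their response between the lines at an adjusted p under 0.05, and 2835 had an unadjusted p under 0.05. The HT29 change was the higher in 91 of them (0.616% of those tested) and the lower in 75 (0.508%). Within lines, siPrdx2 changed 2279 of 12961 genes in HT29 (17.6%; 1006 up and 1273 down) and 466 of 14112 in SW480 (3.3%; 172 up and 294 down). Of the 166, 11 passed in both lines with opposite signs, 70 passed in HT29 only, 51 in SW480 only and 24 in both lines with the same sign. The remaining 10 were 8 that passed in neither line alone and 2 that were too low to be tested in the other line.

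The 2 classes called in a single line differed in what the other line did. For 46 of the 51 genes called in SW480 only, the 95% interval of the HT29 change lay within 0.5 log2 of 0. Among the 70 genes called in HT29 only, 19 had an SW480 interval within that bound, 68 had an SW480 estimate of the opposite sign, and 29 had an SW480 estimate larger in size than the HT29 one. The median standard error in that class was 0.06 in HT29 and 0.12 in SW480, so a missing SW480 call does not show a missing response. All 24 genes called in both lines with the same sign moved further in SW480, 19 of them down and 5 up. The median standard error in this class was 0.04 in HT29 and 0.12 in SW480, so an SW480 call needed a larger change. This count therefore does not compare the strength of the 2 responses.

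**Figure D2:**
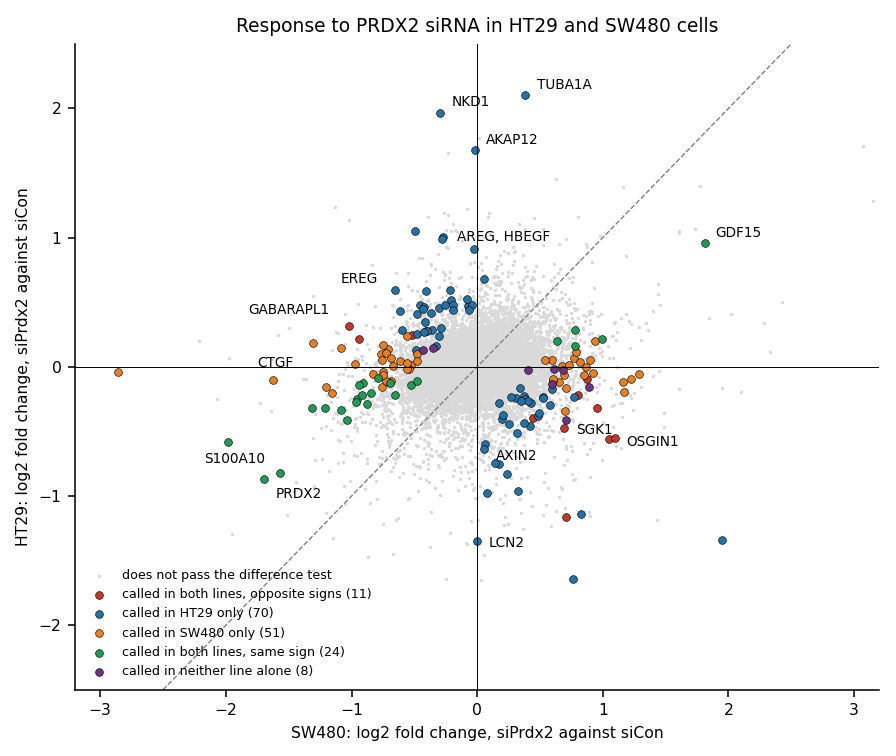
Log2 fold change (siPrdx2 against siCon) in SW480 on the x axis and HT29 on the y axis for genes tested in both lines within the limits drawn; grey points do not pass the difference test, coloured points do, and the dashed line marks equal change. The 24 green points lie further from 0 along the SW480 axis than along the HT29 axis, and the 11 red points lie in the upper left (3) and lower right (8) quadrants.

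The number of genes that passed changed with any library left out, while the sign of the 166 differences did not. Without SW480 siCon replicate 1 the count was 1371 and without replicate 2 it was 5237. In both cases the 166 kept their sign, but they were chosen from these same libraries, so the kept sign is not an independent check. With 1 SW480 control left out, the spread between the 2 controls no longer enters the test, so these counts are not a check of the 166. Leaving out any 1 of the other 6 libraries left 6 to 15 calls. With the GC offset 895 of 14036 genes differed (6.38%), among them 155 of the 159 of the 166 genes that have a GC value, with the sign kept in all 159. Under that offset 2758 of 12387 genes passed within HT29 and 2334 of 13452 within SW480.

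Among genes of the β-catenin pathway, the feedback inhibitors split. AXIN2, a TCF target that encodes an inhibitory scaffold (chromosome 17, 63524681 to 63557766, minus strand, hg19), was at 101 and 100 CPM in HT29 siCon and 66.1 and 67.1 CPM in HT29 siPrdx2. In SW480 the values were 670 and 705 CPM in siCon and 712 and 721 CPM in siPrdx2. AXIN2 fell in HT29, by 0.60 on the log2 scale, and changed by 0.06 (95% interval -0.13 to 0.25) in SW480, with a difference of -0.66 (95% interval -0.85 to -0.46, adjusted p = 0.00888).

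NKD1, which encodes an inhibitor that binds dishevelled (chromosome 16, 50582307 to 50683160, plus strand, hg19), went the other way. It was at 4.45 and 3.77 CPM in HT29 siCon and 15 and 17.2 CPM in HT29 siPrdx2, and at 483 and 543 CPM in SW480 siCon and 427 and 410 CPM in SW480 siPrdx2. NKD1 rose by 1.96 ± 0.17 in HT29 and changed by -0.30 in SW480 (95% interval -0.52 to -0.07, adjusted p = 0.122), which gave a difference of 2.26 (adjusted p = 0.000165). Its HT29 level after knockdown remained far below either SW480 group.

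SGK1, a serum- and glucocorticoid-induced kinase also listed as a β-catenin target, changed in opposite directions. It fell from 101 and 97.8 to 73.0 and 70.2 CPM in HT29 and rose from 68.8 and 62.5 to 106 and 106 CPM in SW480. The log2 fold changes were -0.48 and 0.69, and the difference was -1.17 (adjusted p = 0.00116).

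Of 36 tested β-catenin targets and Wnt feedback genes, these 3 differed between lines, 1 higher and 2 lower in HT29 (1.12% of all genes differed). The median difference was 0.04 against 0.01 over all genes. In HT29 3 of 31 tested rose and 12 fell (17.6% of all genes passed). In SW480 1 of 36 rose and 4 fell (3.3% of all genes passed), and 2 rose and 8 fell there with the GC offset. With the offset 8 differed, 3 higher and 5 lower in HT29, against 6.38% of all genes, with a median of 0.14. Several targets fell in both lines. CCND1 (cyclin D1) was at 186 and 187 CPM in HT29 siCon and 132 and 128 CPM in siPrdx2, and at 1286 and 1318 against 867 and 862 CPM in SW480. It fell by 0.52 and by 0.59, and the difference of 0.07 had an interval of -0.10 to 0.25. S100A4, a calcium-binding protein tied to invasion, fell by 0.45 in HT29 and 0.75 in SW480 (difference 0.30, interval 0.04 to 0.56, adjusted p = 0.212). ID2, an inhibitor of differentiation, fell by 0.43 and 0.64, and EDN1 (endothelin 1) by 0.43 and 1.07, and neither difference passed (adjusted p = 0.437 and 0.178).

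BIRC5 (survivin), PTTG1 (securin) and MMP7 (matrilysin) fell in HT29, by 0.33, 0.43 and 0.32. Their SW480 changes were -0.14, -0.27 and 0.01, none of them called, but the differences of -0.19, -0.17 and -0.32 did not pass (adjusted p = 0.406, 0.514 and 0.212), so these genes are not shown to respond in HT29 only by this test. The MMP7 difference was -0.51 with the GC offset and passed (adjusted p = 0.0192). Of 22 genes of the axin, tankyrase and destruction complex list, AXIN2 alone differed. AXIN1 rose in both lines, by 0.22 and 0.70. Its difference of -0.48 did not pass and was -0.24 with the GC offset. The AXIN1 difference was -0.32 without SW480 siCon replicate 1 and -0.67 without replicate 2. CTNNB1 (β-catenin) had changes of 0.02 and -0.23, TNKS of 0.03 and -0.27, and TNKS2 of 0.03 and -0.14, none of which passed in either line.

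**Figure D3:**
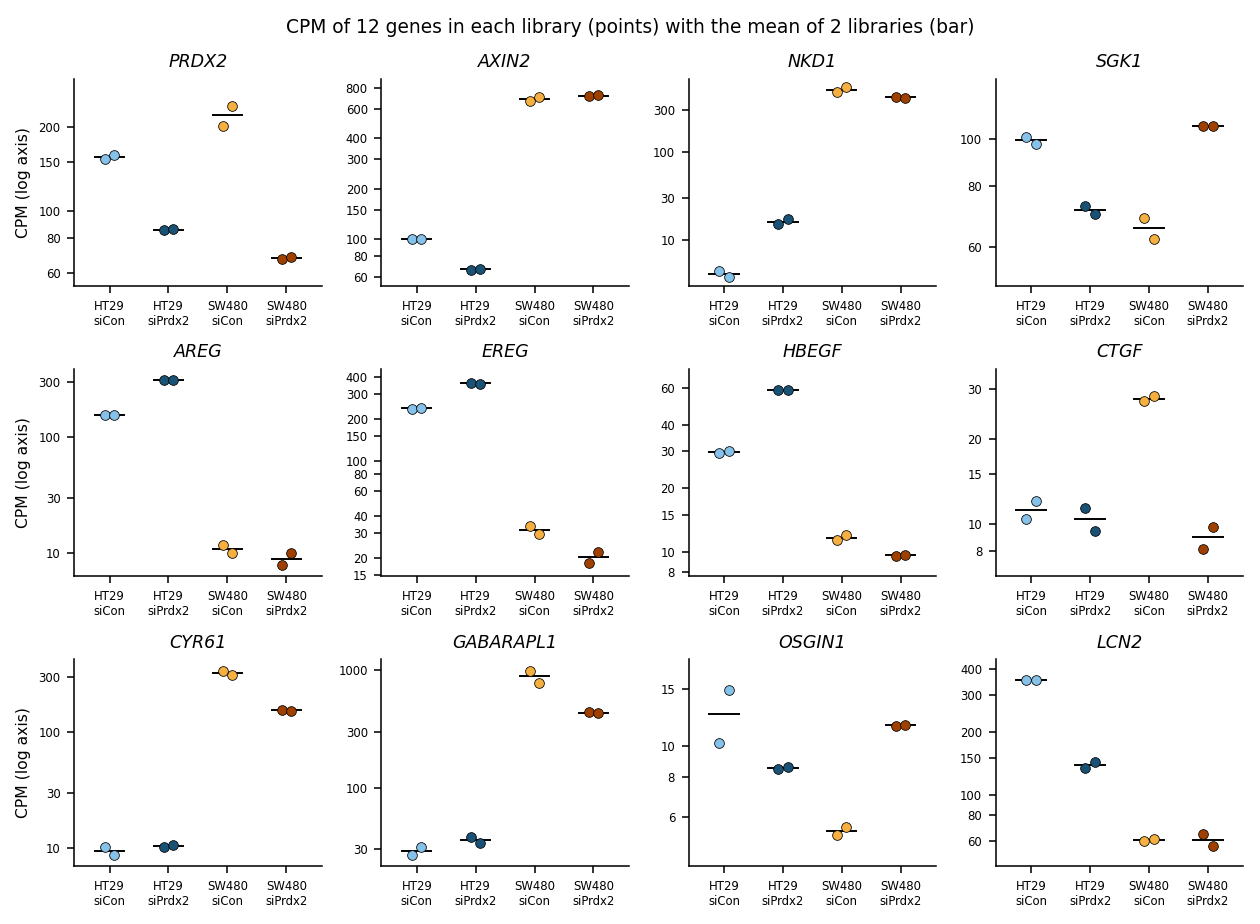
CPM on a log axis for 12 genes, with each library as a point and the mean of the 2 libraries of a group as a bar. AXIN2, NKD1, AREG, HBEGF and LCN2 separate siCon from siPrdx2 mainly in HT29, CTGF and CYR61 in SW480, and SGK1, GABARAPL1 and OSGIN1 move in opposite directions.

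The EGF receptor ligands AREG, EREG and HBEGF rose in HT29 and did not pass the test in SW480. AREG (amphiregulin) was at 155 and 155 CPM in HT29 siCon and 312 and 311 CPM in siPrdx2, against 11.6 and 9.91, and 7.85 and 9.97 CPM, in the SW480 groups, which overlapped. EREG (epiregulin) was at 237 and 240 against 365 and 355 CPM in HT29, and at 34.0 and 29.4 against 18.4 and 21.9 CPM in SW480. HBEGF (heparin-binding EGF-like growth factor) was at 29.4 and 29.9 against 59.0 and 59.0 CPM in HT29, and at 11.3 and 12 against 9.55 and 9.68 CPM in SW480.

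On the log2 scale the HT29 increases were 1.00 for AREG, 0.59 for EREG and 0.99 for HBEGF. The SW480 changes were -0.27, -0.65 and -0.28, of which none passed (adjusted p = 0.423, 0.0568 and 0.348). For EREG the SW480 change was larger in size than the HT29 one, and its SW480 groups did not overlap. The differences were 1.27 (95% interval 0.91 to 1.64), 1.25 (0.94 to 1.55) and 1.27 (0.93 to 1.61), with adjusted p = 0.00707, 0.00248 and 0.00543. The standard errors of the AREG and HBEGF differences, 0.17 and 0.16, were under the 0.20 and 0.17 of their SW480 changes alone. These intervals can therefore be too narrow. EREG (75230862 to 75254466) and AREG (75310853 to 75320722) are neighbours on the plus strand of chromosome 4 (hg19), and HBEGF lies on chromosome 5.

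The feedback phosphatases DUSP5 and DUSP6, which dephosphorylate ERK, and the AP-1 subunit FOS also rose in HT29, by less, and did not pass in SW480. For DUSP6 the SW480 change was the larger in size. DUSP5 rose by 0.48 in HT29 with an SW480 change of -0.04, DUSP6 by 0.16 with -0.33, and FOS by 0.48 with -0.25, and the differences were 0.52, 0.49 and 0.74 (adjusted p = 0.0493, 0.0448 and 0.0330). LIF, a cytokine of the interleukin 6 family, was the exception in the list: it rose by 0.67 in SW480 and changed by 0.00 in HT29 (difference -0.67). In total 6 of 24 tested ERK pathway output genes differed, 5 with the higher change in HT29, against 1.12% of all genes, and the median over the list was 0.08. In HT29 10 of 22 tested rose and 2 fell (17.6% of all genes passed). In SW480 1 of 24 rose and 1 fell (3.3% of all genes passed), and 6 rose and 6 fell there with the GC offset. The count that differed was again 6 (5 higher, 1 lower) with the GC offset, against 6.38% of all genes. Of the immediate early genes, 10 of 22 tested rose in HT29 (1006 of 12961 over all genes) and 1 of 23 in SW480 (172 of 14112). With the GC offset 6 rose and 2 fell in SW480. The list's median changes were 0.19 in HT29 and 0.18 in SW480. FOS alone of 23 differed, and the list's median difference was -0.08 as counted and 0.13 with the GC offset.

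Several targets of YAP and TEAD, the transcription pair restrained by the Hippo pathway, fell in SW480. CTGF (CCN2), a matricellular protein, was at 10.4 and 12.1 CPM in HT29 siCon and 11.4 and 9.46 CPM in siPrdx2, and at 27.2 and 28.3 against 8.15 and 9.77 CPM in SW480. CYR61 (CCN1), its close relative, was at 10.1 and 8.62 against 10.1 and 10.7 CPM in HT29, and at 339 and 314 against 156 and 153 CPM in SW480. The HT29 groups overlapped for CTGF and nearly touched for CYR61, and the SW480 groups lay well apart for both genes.

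CTGF fell by 1.63 ± 0.17 and CYR61 by 1.08 ± 0.10 in SW480, with HT29 changes of -0.10 (95% interval -0.42 to 0.22) and 0.15 (-0.17 to 0.47). The differences were 1.52 and 1.23 (adjusted p = 0.0124 and 0.00578). NT5E (the ectonucleotidase CD73) fell in both lines, by 0.32 in HT29 and 1.21 in SW480 (difference 0.89, adjusted p = 0.0153). AJUBA, a LIM-domain scaffold, rose by 0.28 in HT29 and had an SW480 change of -0.36 (difference 0.64, adjusted p = 0.0439). ANKRD1, a further target, went from 336 and 269 to 117 and 119 CPM in SW480, a fall of 1.36, but was at 0.326 to 0.862 CPM in HT29 and was not tested there (named for its promoter, after its values were seen).

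Of 25 tested YAP/TAZ targets 4 differed, all with the higher change in HT29 (0.616% of all genes did), and the median difference was 0.19. Under the GC offset 5 were higher and 1 lower, against 6.38% of all genes in either direction, with a median of 0.21. In SW480 0 of 25 rose and 6 fell (3.3% of all genes passed), and in HT29 1 of 21 rose and 4 fell (17.6% of all genes passed). In SW480 4 rose and 14 fell with the GC offset, so the list did not move one way there. For the core letters of the TEAD element, promoters were looked at for 4 of the genes above (CTGF, ANKRD1, NT5E and AJUBA). The 2 that held the letters are shown, chosen after the matches were seen. CYR61 was not looked at. Each is given as the 250 bases before the RefSeq start site, read in the direction of transcription. Capitals mark these letters, CATTCC or its reverse complement GGAATG. CTGF is given at chr6:131951373-131951622 (minus strand) and ANKRD1 at chr10:90921088-90921337 (minus strand), both in GRCh38.p14 and not in the build of the counts.
CTGF: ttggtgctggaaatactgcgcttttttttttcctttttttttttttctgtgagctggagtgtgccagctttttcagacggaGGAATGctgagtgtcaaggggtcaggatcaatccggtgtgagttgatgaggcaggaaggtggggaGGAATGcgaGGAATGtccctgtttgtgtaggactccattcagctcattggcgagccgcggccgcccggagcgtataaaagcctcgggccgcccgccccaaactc
ANKRD1: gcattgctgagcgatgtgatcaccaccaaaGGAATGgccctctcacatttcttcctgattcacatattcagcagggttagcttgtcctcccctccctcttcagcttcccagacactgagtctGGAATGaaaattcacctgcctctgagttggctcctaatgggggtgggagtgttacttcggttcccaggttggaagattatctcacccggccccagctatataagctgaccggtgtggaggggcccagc
The letters stood 3 times in the CTGF window and 2 times in the ANKRD1 window, and 0 times in those of NT5E and AJUBA. Over 27305 promoters 11.9% held them, and among the 122 genes of the 166 with a listed promoter, 14 held them (11.5%). The SGK1 promoter was looked at for the letters of the TCF element, CTTTGA or its reverse complement TCAAAG, and held them 0 times. Of all 27305 promoters 11.4% held the TCF letters, and 8 of the 122 did (6.56%). A match is a description of letters and not of binding.

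LAMC1, a laminin chain of the basement membrane, was at 115 and 105 against 99.0 and 98.5 CPM in HT29 and at 332 and 350 against 197 and 207 CPM in SW480. The siPrdx2 libraries lay below the siCon libraries in both lines. LAMC1 fell by 0.76 in SW480, its HT29 change of -0.16 did not pass (adjusted p = 0.0501), and the difference was 0.60 (adjusted p = 0.0260).

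The 11 genes that passed in both lines with opposite signs were SGK1, NEAT1, GABARAPL1, OSGIN1, ABCC3, C15orf62, POC1B, C2CD3, SLC25A22, LOC100289019 and DNM3. GABARAPL1, an ATG8-family protein of autophagosomes, went from 26.8 and 31.4 to 38.5 and 34.1 CPM in HT29 and from 983 and 777 to 437 and 433 CPM in SW480. It rose by 0.32 and fell by 1.02, a difference of 1.34 (adjusted p = 0.00603). POC1B and C2CD3, both of them centriolar proteins, also rose in HT29 (0.21 and 0.25) and fell in SW480, by 0.94 and 0.52.

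The other 8 fell in HT29 and rose in SW480. OSGIN1, an NRF2-inducible growth inhibitor, was at 10.2 and 14.9 against 8.48 and 8.59 CPM in HT29 and at 5.25 and 5.58 against 11.5 and 11.6 CPM in SW480. Its changes were -0.55 and 1.09 (difference -1.65, adjusted p = 0.0216). NEAT1, the long noncoding RNA that builds paraspeckles, had changes of -0.39 and 0.45 (difference -0.84, adjusted p = 0.00578). ABCC3, an exporter of organic anions and conjugates, had changes of -0.09 and 0.87, SLC25A22 (a mitochondrial glutamate carrier) of -0.22 and 0.80, C15orf62 of -0.56 and 1.05, LOC100289019 of -0.32 and 0.96, and DNM3 (dynamin 3, under 5 CPM in HT29 and named after its values were seen) of -1.16 and 0.71. The larger of the 2 changes was the SW480 one in 10 of the 11. The median standard error here was 0.07 in HT29 and 0.15 in SW480, so that count does not compare the strength of the responses. All 11 kept their sign when the SW480 controls were left out 1 at a time, and the 10 with a GC value were called with the GC offset. The 11 were chosen from these same libraries, so neither result is an independent check.

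NRF2 targets are antioxidant and detoxification genes. Of 33 tested, 3 differed (OSGIN1, ABCC3 and GPX2), all with the lower change in HT29 (0.508% of all genes did), and 29 had a difference below 0 (median -0.18, and -0.20 with the GC offset). GPX2, an intestinal glutathione peroxidase, was at 461 and 483 against 397 and 401 CPM in HT29 and at 36.4 and 36.3 against 43.8 and 46.1 CPM in SW480, with changes of -0.24 and 0.31. In HT29 5 of 31 tested targets rose and 8 fell (17.6% of all genes passed), and in SW480 3 of 31 rose and 0 fell (3.3% of all genes passed). With the GC offset 8 of 33 differed, all lower in HT29, against 6.38% of all genes in either direction, and in SW480 12 rose and 0 fell.

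Of 35 lysosome and autophagy genes 5 differed, 2 higher and 3 lower in HT29, against 1.12% of all genes (median -0.23). With the GC offset 2 of 34 were higher and 10 lower, against 6.38% of all genes (median -0.20). SQSTM1 (p62, an autophagy receptor and NRF2 target) was at 552 and 581 against 625 and 641 CPM in HT29 and at 636 and 722 against 1150 and 1187 CPM in SW480. It rose by 0.16 and 0.78 (difference -0.62, adjusted p = 0.0156). CTSA (cathepsin A) rose by 0.77 in SW480 with an HT29 change of 0.07, and CTSB (cathepsin B) fell by 0.17 in HT29 with an SW480 change of 0.34. NPC2, a lysosomal sterol carrier, had changes of 0.14 and -0.35, and ARSA (arylsulfatase A, not in the list) of -0.41 and 0.70. Neither passed within a line, but both differences did (0.50 and -1.11).

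Genes of the amino acid stress response directed by ATF4 rose in HT29, but few of them differed between the lines. In HT29 29 of 34 tested rose (1006 of 12961 over all genes) and 0 fell, with a median change of 0.41. In SW480 6 of 36 rose (172 of 14112 over all genes) and 0 fell, with a median of 0.33. In SW480 16 rose and 4 fell with the GC offset, with a median of 0.25, and 30 rose and 0 fell in HT29. DDIT4 (REDD1, an inhibitor of mTORC1) went from 267 and 262 to 403 and 400 CPM in HT29, and was at 26.2 and 27.1 against 23.0 and 22.9 CPM in SW480. PSPH (phosphoserine phosphatase, serine synthesis) and SLC38A2 (an amino acid transporter) had the same pattern. VLDLR (a lipoprotein receptor) did not, since its larger change was the SW480 one. VLDLR rose by 0.43 in HT29 and changed by -0.62 in SW480, which did not pass there. It was at 22.4 and 24.6 CPM in SW480 siCon and at 14.2 and 16.4 CPM in SW480 siPrdx2. The differences were 0.82 for DDIT4, 0.67 for PSPH, 0.63 for SLC38A2 and 1.05 for VLDLR, all called in HT29 only.

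GDF15, a stress-induced cytokine, was the other member that differed. It rose from 207 and 214 to 394 and 427 CPM in HT29 and from 17.8 and 17.6 to 61.8 and 62.6 CPM in SW480, and the changes of 0.96 and 1.82 differed by -0.85 (adjusted p = 0.00751). Over the list the median difference was 0.04, and 0.12 with the GC offset, where 8 differed upward and 1 downward in HT29 (6.38% of all genes differed). Of 20 cytosolic aminoacyl-tRNA synthetases 11 rose in HT29 (1006 of 12961 over all genes) and 0 in SW480 (172 of 14112), yet 0 of the 20 differed (median 0.14). Under the GC offset 8 of 16 rose in HT29 and 6 in SW480, and the median difference was 0.01.

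Of 42 G1/S and DNA replication genes, 23 rose (1006 of 12961 over all genes) and 0 fell in HT29 (median 0.16). In SW480 0 rose (172 of 14112 over all genes) and 0 fell (median -0.13), and 1 rose and 7 fell with the GC offset. The difference was above 0 for 39 of 42, against 7559 of all 14772 genes, with a median of 0.29, but CDC6 alone passed the test. CDC6, which loads the replicative helicase, was at 101 and 95.6 against 115 and 124 CPM in HT29 and at 186 and 170 against 132 and 137 CPM in SW480 (changes 0.28 and -0.40, difference 0.69, adjusted p = 0.0200). With the GC offset 13 of the 42 differed, all higher in HT29 (median 0.24), against 6.38% of all genes in either direction. DNA repair and checkpoint genes had a median difference of 0.24 (0.15 with the GC offset), and EXO1, an exonuclease of mismatch repair and resection, was the 1 of 33 that differed (0.77).

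Mitotic genes fell in HT29, where 32 of 44 G2/M genes were lower (1273 of 12961 over all genes) and 0 higher, with a median of -0.28. In SW480 3 fell (294 of 14112 over all genes), and the median was much the same, -0.27. KIF20A, a kinesin of cytokinesis, went from 60.2 and 57.5 to 29.9 and 30.1 CPM in HT29 and was at 103 and 105 against 110 and 109 CPM in SW480. It fell by 0.98 in HT29 and the SW480 interval was -0.16 to 0.31 (difference -1.05, adjusted p = 0.00215). PLK1, the mitotic kinase, fell by 0.40 with an SW480 change of 0.20 (difference -0.60, adjusted p = 0.0459). For the list as a whole the median difference depended on the control library. It was 0.01 with both controls, -0.16 without SW480 siCon replicate 1, 0.11 without replicate 2, and -0.21 with the GC offset, so no direction is given for it.

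Interferon-stimulated genes fell in HT29, with 28 of 44 lower (1273 of 12961 over all genes) and 0 higher (median -0.42). In SW480 3 of 39 tested fell (294 of 14112 over all genes) and 0 rose (median -0.12). The median difference was -0.32, and -0.38 with the GC offset, with 33 of 44 differences below 0, but OAS2 alone passed. With the offset 8 passed, all lower in HT29, against 6.38% of all genes in either direction. OAS2, a sensor of double-stranded RNA, was at 19.7 and 23.4 against 10.9 and 11.3 CPM in HT29 and at 13.1 and 12.4 against 17.4 and 14.5 CPM in SW480 (difference -1.28, adjusted p = 0.0203). Of 18 genes of MHC class I antigen presentation, TAPBP (tapasin, which loads peptide) alone differed (1.12% of all genes did), with changes of -0.44 and 0.37 (difference -0.81, adjusted p = 0.0153). The median difference was -0.29. In HT29 1 of 18 rose and 8 fell (17.6% of all genes passed), and in SW480 1 rose and 0 fell (3.3% of all genes passed). With the GC offset 4 differed, all lower in HT29, against 6.38% of all genes in either direction (median -0.21), and in SW480 4 rose and 2 fell.

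Among 32 tested NF-κB targets and epithelial defence genes, 3 differed, against 1.12% of all genes. LCN2 (lipocalin 2, which sequesters bacterial siderophores) was at 354 and 354 CPM in HT29 siCon and 135 and 144 CPM in siPrdx2, and at 60.2 and 61.4 against 64.8 and 57.0 CPM in SW480. It fell by 1.35 ± 0.04 in HT29, the SW480 change was 0.00 (95% interval -0.27 to 0.27), and the difference was -1.35 (adjusted p = 0.00043). TNFAIP2, a TNF-induced protein, rose by 0.61 in SW480 with an HT29 change of -0.09, and ICAM1, an adhesion molecule, rose by 0.52 in HT29 with an SW480 change of -0.21 (differences -0.70 and 0.72). The list's median difference was -0.27, and -0.19 with the GC offset. With the offset 1 was higher and 7 lower in HT29, against 6.38% of all genes in either direction. In HT29 2 of 26 tested rose and 2 fell (17.6% of all genes passed). In SW480 4 of 31 rose and 5 fell (3.3% of all genes passed), and 9 rose and 7 fell there with the GC offset.

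**Figure D4:**
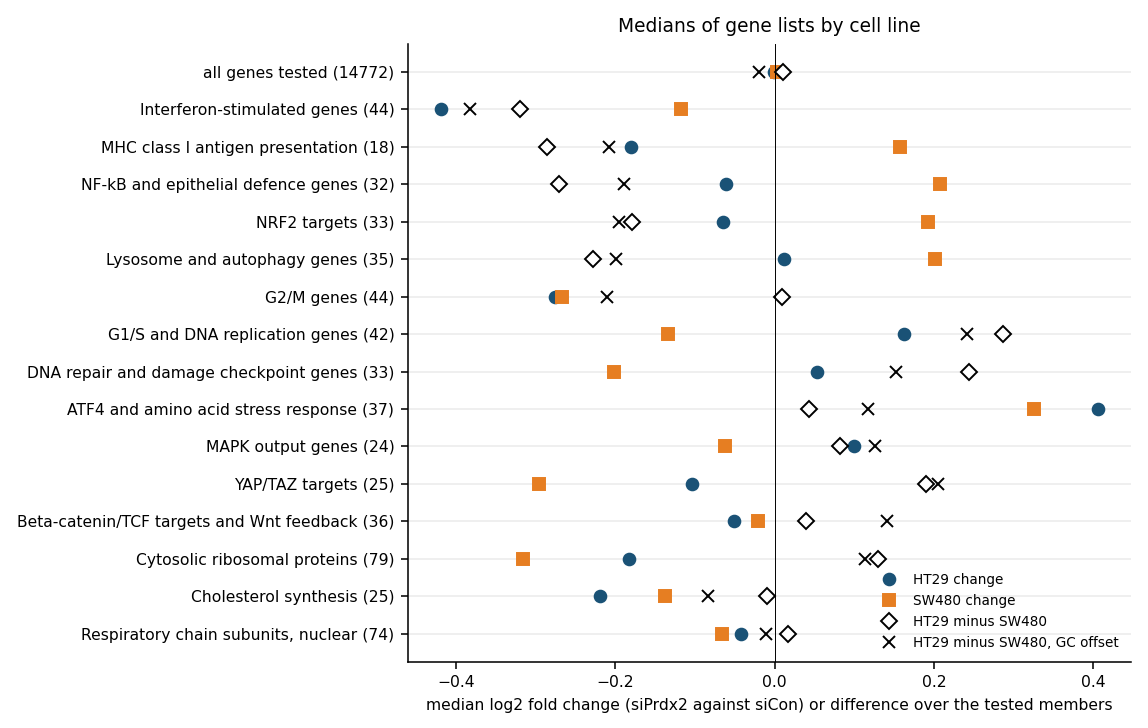
Median log2 fold change in HT29 (circles) and SW480 (squares) and median difference between the lines (diamonds; crosses with the GC offset) over the tested members of 15 gene lists and all genes, with the number tested in brackets. The interferon list has a difference of -0.32, the G1/S list 0.29 and all genes 0.01, and the G2/M diamond at 0.01 moves to -0.21 with the offset.

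Further genes were called in HT29 only, some of them with a large change there. TUBA1A, an alpha-tubulin, went from 9.01 and 8.72 to 39.0 and 37.6 CPM in HT29 and was at 224 and 246 against 309 and 305 CPM in SW480 (changes 2.11 and 0.38, difference 1.72, adjusted p = 0.000165). Its sequence is close to those of TUBA1B and TUBA1C, so reads may have been shared out between them by the counting. AKAP12, which anchors protein kinase A, went from 44 and 39.3 to 134 and 133 CPM in HT29 and lay between 1022 and 1080 CPM in all SW480 libraries (difference 1.70, 95% interval 1.49 to 1.92, adjusted p = 2.89e-05). ANXA6, a membrane-binding annexin, rose by 0.91 in HT29 with an SW480 change of -0.02. TUBB4B, a beta-tubulin, fell by 0.45 in HT29 with an SW480 change of 0.26, PER3, a clock gene, fell by 0.83 with 0.24, and HSPA1B, an inducible HSP70 nearly identical to HSPA1A, fell by 0.36 with 0.49 (differences -0.70, -1.06 and -0.85). For HSPA1B the SW480 change was the larger in size but did not pass there.

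Among genes with a large change in SW480 only, CYP24A1, the enzyme that inactivates vitamin D, went from 396 and 374 to 157 and 155 CPM in SW480 and was at 7.21 and 7.97 against 8.88 and 8.37 CPM in HT29 (changes -1.31 and 0.18, difference 1.49, adjusted p = 0.00157). AHRR, a repressor of the aryl hydrocarbon receptor, went from 28.4 and 33.6 to 70.3 and 68.2 CPM in SW480 and was at 6.79 and 6.25 against 6.97 and 5.00 CPM in HT29. It rose by 1.16, with a difference of -1.28 (adjusted p = 0.0326), and was the 1 of 12 genes of that receptor's axis that differed. SIAE (a sialic acid esterase) fell in SW480, from 21.1 and 20.6 to 9.45 and 8.70 CPM. PLOD2 (a collagen lysyl hydroxylase) and SLC24A1 (a sodium, calcium and potassium exchanger) fell there by 1.15 and 0.97, and NOS3 (endothelial nitric oxide synthase) rose by 1.17. The HT29 changes of SIAE, PLOD2, SLC24A1 and NOS3 were -0.16, -0.20, 0.02 and -0.20, and the differences were 1.04, 0.95, 1.00 and -1.37.

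The loci LOC100093631 and LOC100288152 also passed in SW480 only, with differences of 2.82 and -1.34, but LOC100093631 belongs to a family of GTF2I copies that share reads. It was at 32.8 and 13.7 CPM in the SW480 siPrdx2 libraries, which did not agree well with each other, against 166 and 171 CPM in siCon.

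S100A10 led the genes that fell in both lines. This annexin A2 partner went from 560 and 560 to 375 and 376 CPM in HT29 and from 390 and 350 to 91.5 and 95.2 CPM in SW480, with changes of -0.58 and -1.99 (difference 1.41, 95% interval 1.19 to 1.63, adjusted p = 0.00014). ANXA1, an anti-inflammatory annexin, went from 383 and 380 to 214 and 219 CPM and from 434 and 364 to 135 and 133 CPM (changes -0.82 and -1.57, difference 0.75, adjusted p = 0.0168). In each case the siPrdx2 libraries lay below the siCon libraries in both lines. Of the p53 targets, MDM2, the ubiquitin ligase of p53, fell by 0.28 and 0.97, and TNFRSF10B, a death receptor for TRAIL, rose by 0.29 and 0.78 (differences 0.69 and -0.49). HIST1H2BK, a polyadenylated histone gene, fell by 0.41 and 1.04.

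Cytosolic ribosomal protein genes fell in both lines, 72 of 79 in HT29 (median -0.18, 1273 of 12961 over all genes) and 21 of 79 in SW480 (median -0.32, 294 of 14112 over all genes). None rose. Under the GC offset 74 fell in HT29 and 56 in SW480. RPL13A, at 746 and 764 against 695 and 694 CPM in HT29 and 283 and 272 against 146 and 150 CPM in SW480, and RPL23 differed (0.79 and 0.37, adjusted p = 0.00215 and 0.0459), against 1.12% of all genes. With the GC offset 18 differed, all with the higher change in HT29, against 6.38% of all genes in either direction. Ribosomal protein genes have many processed copies, which can take part of their reads.

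Other lists gave no gene whose response differed by the edgeR test: cholesterol synthesis (25 tested, median -0.01), fatty acid synthesis (18, -0.01), nuclear respiratory chain subunits (74, 0.02), mitochondrial ribosomal proteins (76, 0.08), proteasome subunits (34, 0.07), genes of endoplasmic reticulum folding (28, 0.06) and iron uptake and ferroptosis genes (21, -0.02). With the GC offset 4 genes of cholesterol synthesis differed (1 higher and 3 lower in HT29, median -0.08) and 4 of iron uptake and ferroptosis (all lower, median -0.13). There were 2 in fatty acid synthesis, 2 among mitochondrial ribosomal proteins, 1 each among proteasome and endoplasmic reticulum folding genes and 0 in the respiratory chain, against 6.38% of all genes.

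The 2 genes tested in a single line were SLC2A3 and TIMM23B. SLC2A3, the glucose transporter GLUT3, went from 2092 and 2000 to 991 and 966 CPM in SW480, a fall of 1.06, and was at 0.761 CPM or less in the 4 HT29 libraries, near the level of 3 counts, so no HT29 response was detectable at this depth. TIMM23B was at 12.3 and 12.2 CPM in HT29 siCon and 0.303 and 0.109 CPM in siPrdx2, and at 0, 0, 0.0994 and 10.1 CPM in the SW480 libraries. It has a near-identical copy, TIMM23, between which reads can be assigned either way, and no fold is given.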

How the data were processed

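Libraries were made from polyadenylated RNA (TruSeq v2). The authors deposited expected counts per gene symbol, made on hg19; their methods, stated for HT29, name MapSplice for alignment and RSEM with refGene for quantification. Here the expected counts were rounded and fitted in edgeR 4.0.16 (R 4.3.3; TMM, quasi-likelihood test, Benjamini-Hochberg adjustment, threshold 0.05), with 1 mean per group. The difference between lines came from a fit of all 8 libraries and the changes within lines from a fit of the 4 libraries of that line, on genes that reached 10 counts in 2 or more libraries of the fit. CPM use TMM library sizes. The GC offset removed a loess trend (span 0.5) of library against GC, taken from GENCODE transcripts on GRCh37 and available for 95.0% of tested symbols. The test was checked on simulated data that had 1 spread per gene for all groups and no trend on GC content. That check therefore does not cover the disagreement of the SW480 controls. Total expected counts of 8857442 to 10164137 limit precision for genes of a few CPM.

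Genes, lists and the comparison were chosen with earlier results of these data known. The rule for named genes took PRDX family members and genes that the study discusses, then, at a mean of at least 5 CPM in each line, the 10 largest differences in each direction, up to 10 opposite genes by p and the 10 largest changes in each class called in 1 line. It added genes tested in a single line and, for 42 gene lists, members that differed or had the highest CPM; not all are printed. Coordinates come from GENCODE on GRCh37 (hg19), promoter sequences from RefSeq (GRCh38.p14). DESeq2 1.42.0 and limma 3.58.1 (voom with group weights) were alternatives. Some items are not reported here.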

Additional observations from a re-analysis of the deposited data

Results flagged for a closer look

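The test of the difference between lines passed for 166 genes, and those described above with a difference are listed here with that difference of log2 fold changes (HT29 minus SW480). SLC2A3 and TIMM23B also passed, but no difference is given for them because they were near or under the level of 3 counts in some groups. With the higher change in HT29 the others were LOC100093631 (2.82), NKD1 (2.26), TUBA1A (1.72), AKAP12 (1.70), CTGF (1.52), CYP24A1 (1.49), S100A10 (1.41), GABARAPL1 (1.34), AREG (1.27), HBEGF (1.27), EREG (1.25) and CYR61 (1.23). Smaller differences in that direction were those of POC1B (1.16), VLDLR (1.05), SIAE (1.04), SLC24A1 (1.00), PLOD2 (0.95), ANXA6 (0.94), NT5E (0.89), PRDX2 (0.84), DDIT4 (0.82), RPL13A (0.79), EXO1 (0.77) and C2CD3 (0.77). The list goes on with ANXA1 (0.75), FOS (0.74), ICAM1 (0.72), CDC6 (0.69), MDM2 (0.69), PSPH (0.67), AJUBA (0.64), SLC38A2 (0.63), HIST1H2BK (0.63), LAMC1 (0.60) and DUSP5 (0.52). The list goes on with NPC2 (0.50), DUSP6 (0.49) and RPL23 (0.37). With the lower change in HT29 they were DNM3 (-1.87), OSGIN1 (-1.65), C15orf62 (-1.61), NOS3 (-1.37), LCN2 (-1.35), LOC100288152 (-1.34), OAS2 (-1.28), AHRR (-1.28), LOC100289019 (-1.27), SGK1 (-1.17), ARSA (-1.11) and PER3 (-1.06). Smaller differences in that direction were those of KIF20A (-1.05), SLC25A22 (-1.01), ABCC3 (-0.96), GDF15 (-0.85), HSPA1B (-0.85), NEAT1 (-0.84), TAPBP (-0.81), CTSA (-0.70), TNFAIP2 (-0.70), TUBB4B (-0.70), LIF (-0.67) and AXIN2 (-0.66). Below these came SQSTM1 (-0.62), PLK1 (-0.60), GPX2 (-0.55), CTSB (-0.51) and TNFRSF10B (-0.49). LOC100093631, HSPA1B, TUBA1A and TUBB4B share sequence with near copies, so their values are uncertain. With 2 libraries per group no library could be tested as an outlier.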

How the results depend on the processing

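The main limits are 2 libraries per group and the disagreement of the SW480 controls, and genes of a few CPM are imprecise at this depth. All 166 differences kept their sign under each leave-out. The 166 were also called by DESeq2 in 144 of the 146 to which it gave an adjusted p and by limma-voom in 150. They were chosen from these same counts, so neither result is an independent check. The cause of the changed counts was not tested. The count of genes that differed was 267 without a filter, 895 with the GC offset, 311 with DESeq2 and 483 with limma-voom, and leaving out 1 library gave 6 to 5237 (1371 without SW480 siCon replicate 1 and 5237 without replicate 2). Opposite genes numbered 99 with the GC offset and 39 with limma-voom, and 0 to 496 when 1 library was left out (142 and 496 without the SW480 controls). Genes called in HT29 only numbered 112 without a filter, 258 with the GC offset, 23 with changes within lines from all 8 libraries and 139 with limma-voom, and 4 to 389 when 1 library was left out (289 and 389). Genes called in SW480 only numbered 77, 381, 123 and 225 under those settings and 131 with DESeq2, and 0 to 3696 when 1 library was left out (681 and 3696). Fewer genes kept their class than kept their sign, since 106 of the 159 with a GC value kept their class with the GC offset.

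Within lines, HT29 calls numbered 185 from all 8 libraries and 871 with DESeq2. SW480 calls numbered 2415 from all 8 libraries and, under alternatives chosen after seeing the data, 2334 with the GC offset, 1148 with limma-voom and 87 to 7364 when 1 library was left out (3437 and 7364 without the SW480 controls). The PRDX2 difference ranged from 0.70 to 0.95 when 1 library was left out and missed the threshold in the 6 cases that kept both SW480 controls. Uncalled differences changed sign with the GC offset for PRDX4 (-0.055), PRDX5 (0.047), PRDX6 (-0.057) and TNKS2 (-0.052), and without SW480 siCon replicate 1 for PRDX4 and PRDX5, which ranged from -0.12 to 0.25 and from -0.37 to 0.0082 when 1 library was left out.

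Replicate numbers are shared across groups in the labels. The correlation of same-numbered deviations was 0.03 in HT29 and 0.07 in SW480, so the samples are taken to share only a number. With the replicate block 196 genes differed, 47 of them in opposite directions, 53 in HT29 only and 59 in SW480 only, and 2890 were called in HT29 and 1727 in SW480. Of the 166, 138 were called under the block, and of the genes named above PLOD2, TNFRSF10B, ICAM1, RPL23, DUSP5, AJUBA, NPC2 and HIST1H2BK were not (adjusted p = 0.0502 to 0.0622). The block with the GC offset gave 942 genes that differed, 152 opposite, 243 in HT29 only, 410 in SW480 only and 3064 called in SW480 (the last chosen after seeing the data), with PRDX4 at -0.057, PRDX5 at 0.045, PRDX6 at -0.055 and TNKS2 at -0.051.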
